A study of Mus musculus with 2 samples.

Results

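Granule neuron nuclei that carried Svep1, Frem2 or Fgf5 transcripts were selected by a rule on raw counts of unique molecular identifiers (UMIs, each 1 counted transcript molecule). Of 11803 nuclei in the series, 947 met the rule, 401 of 4857 in the control library and 546 of 6946 in the library labelled conditional knockout (cKO-labelled library). A nucleus had to have at least 1000 genes detected, at most 5% mitochondrial UMIs and a Svep1+Frem2+Fgf5 sum of 2 or more. It also had to have a Neurod1+Neurod2+Etv1+Pax6 sum of 2 or more, a Cntn2 count of 1 or less, no UMI of Mki67, Top2a or Kif11, and a Gad1+Gad2 sum of 1 or less. These measured values chose the members, so the levels of the 13 genes of the rule are given as a description only. The members are called Svep1/Frem2 granule nuclei here.

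The nuclei came from whole cerebella of mice at postnatal day 1 and were profiled with a droplet kit that counts transcripts from their 3′ end. Control cerebella came from littermates without Cre, for which the genotype is given as Tox3f/f in one label and as Tox3f/f or Tox3f/+ in the name of the library. The cKO cerebella came from Nestin-cre;Tox3f/f mice, in which Cre acts in neural precursors and therefore reaches the descendants of all of them, neurons and macroglia alike. The mice of both groups thus carried at least 1 floxed allele of Tox3. The 12 cerebella of a group were pooled into 1 library, so a difference between the libraries has no replicate check, and no test was made. The intervals below are exact 95% intervals that cover counting error only, not the spread between animals or libraries.

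Cerebellar granule neurons are the small excitatory neurons that arise from Atoh1-positive progenitors of the external granule layer. After their last division they pass through a stage marked by Cntn2 (TAG-1, an axonal adhesion protein), extend parallel fibres, migrate inward past Bergmann glia and form synapses with Purkinje cells. Svep1 is a large secreted adhesion protein of the extracellular matrix, Frem2 a matrix protein of the basement membrane that works in a complex with Fras1 and Frem1, and Fgf5 a secreted fibroblast growth factor.

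After the filters on genes and mitochondrial share, 3816 control nuclei and 6217 nuclei of the cKO-labelled library remained, with medians of 4711 and 4495 UMIs. The 2 libraries shared 9 barcodes, none of which was a member. Tox3, the targeted gene, was not lower in the cKO-labelled library over all filtered nuclei (ratio of levels 1.13, 1.07 to 1.19). A count per gene from the 3′ end does not show a deleted internal segment, so Tox3 did not check the labels. Nuclei with an Xist UMI made up 62.3% of control members and 72.9% of members in the cKO-labelled library, and those with a Y-linked UMI but without Xist 33.9% and 23.4%.

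The Svep1/Frem2 granule nuclei were 10.5% of filtered control nuclei and 8.78% of filtered nuclei in the cKO-labelled library, a ratio of 0.836 (0.733 to 0.953). Their share of the nuclei that met the rule's granule, cycle and Gad criteria was 29.5% (401 of 1361) in control and 30.2% (546 of 1810) in the cKO-labelled library, a ratio of 1.02 (0.898 to 1.17). With a sum of 3 or more in place of 2, that ratio was 0.844 (0.719 to 0.992), and with every nucleus thinned to 2000 UMIs before the rule it was 1.14 (0.862 to 1.51). The members were thus a smaller share of all nuclei, while within the granule nuclei their shares, as the rule gives them, differed by less than the counting error. Nuclei meeting the granule criteria were themselves a smaller share of filtered nuclei, 35.7% in control and 29.1% in the cKO-labelled library. Over all barcodes, without the filter on genes, the members were 8.26% and 7.86%, and the interval of that ratio included 1 (0.835 to 1.09).

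The cycle criterion removed unequal parts of the candidates. Of 715 control nuclei with a Svep1+Frem2+Fgf5 sum of 2 or more, 142 (19.9%) held a Mki67, Top2a or Kif11 UMI, against 135 of 1007 (13.4%) in the cKO-labelled library. The Cntn2 criterion removed 35 and 29 of these candidates and the Gad criterion 49 and 80. Just inside the Cntn2 limit, 75 and 58 members held 1 Cntn2 UMI, and the others held none.

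The members of the control library held more of the defining transcripts per nucleus. The median Svep1+Frem2+Fgf5 sum was 4 UMIs in control and 3 in the cKO-labelled library, and the highest was 23 and 17. A sum of 5 or more was found in 172 of 401 control members (42.9%) and in 137 of 546 members of the cKO-labelled library (25.1%), a ratio of 0.585 (0.464 to 0.736). A sum of exactly 2, just inside the threshold, was found in 108 and 217 members, and a sum of 1, just outside it, in 177 and 305 otherwise eligible nuclei. Members were also deeper in control, with a median of 5752 UMIs against 4850.5, and a sum of UMIs follows depth.

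**Figure D1:**
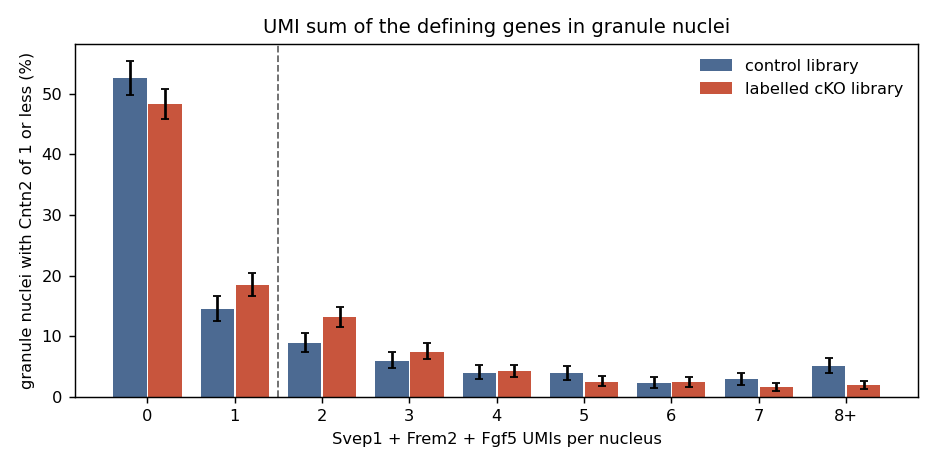
Share of granule nuclei with Cntn2 of 1 or less (vertical axis, percent) by their Svep1+Frem2+Fgf5 UMI sum (horizontal axis) in the control library (blue, 1220 nuclei) and the cKO-labelled library (red, 1648 nuclei). Bars are shares, error bars exact 95% counting intervals, and the dashed line marks the threshold of the rule; sums of 8 or more make up 5.08% of control nuclei and 1.88% of nuclei in the cKO-labelled library.

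Scaled for depth, Svep1 and Frem2 were close between the libraries in granule nuclei, and Fgf5 was lower in the cKO-labelled library. Levels are given as CPM, the UMIs of a gene per 1000000 UMIs summed over the same nuclei. Among all 1361 and 1810 granule nuclei, where the Svep1+Frem2+Fgf5 sum was not used, Svep1 (chr4:58042442-58206859, minus strand, GRCm38) was at 145 CPM in control and 135 CPM in the cKO-labelled library. Frem2 (chr3:53513938-53657355, minus strand) was at 112 CPM in both. Fgf5 (chr5:98254184-98277030, plus strand) was at 53.6 and 39.7 CPM, a ratio of 0.740 (0.636 to 0.861). In these granule nuclei Fgf5 was thus the one of the 3 whose interval lay off 1. Over all filtered nuclei, Svep1, Frem2 and Fgf5 had ratios of 0.777, 0.907 and 0.563, each with an interval below 1.

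The 3 genes overlapped in part. Svep1 was seen in 302 control members (75.3%) and 404 members of the cKO-labelled library (74.0%), Frem2 in 283 and 351, and Fgf5 in 154 and 182. All 3 were seen in 58 members of each library. Among granule nuclei with Cntn2 of 1 or less, Frem2 was seen in 57.5% of control nuclei with a Svep1 UMI and in 16.8% of those without. The same shares were 41.0% and 19.96% in the cKO-labelled library. Nuclei with many UMIs show more of any gene, and these shares are not corrected for that.

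Thinning every nucleus to 2000 UMIs, as the mean over all possible draws, set the shares of nuclei with a UMI on 1 depth. Svep1 was then seen in 46.4% of control members and 46.7% of members in the cKO-labelled library. In GABAergic nuclei (Gad1+Gad2 of 5 or more, median 6679.5 and 6244 UMIs), which served as the background, the thinned shares were 1.36% and 1.94%. Unthinned, Svep1 was seen in 5.71% and 5.80% of those nuclei. Astroglial nuclei (Slc1a3 of 5 or more, outside the granule criteria, median 4417 and 3812 UMIs) were not empty of the defining genes. After thinning, Frem2 was seen in 10.4% of control and 16.8% of cKO-labelled astroglial nuclei, and Svep1 in 8.67% and 8.46%. Fgf5 was rarer there, at 0.798% and 0.650%, against 18.1% and 16.4% in members.

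The label of later granule neurons was set beside Slit3, Gabra6 and Rbfox3, which the rule did not use, and Etv1, which it did. Slit3 was named as a marker with earlier results of these data known, so its level is a description and does not check the label. Slit3, a secreted ligand of Robo receptors and the only one of the 5 marker genes outside the rule, was seen in 74.8% and 78.3% of thinned members. In granule nuclei with a Svep1+Frem2+Fgf5 sum of 0 the thinned shares were 29.7% and 36.2%, and in those with Cntn2 of 2 or more they were 24.1% and 21.2%. Etv1, an ETS transcription factor that could admit a nucleus to the rule, was not a mark of the members. Its level was 93.8 CPM in control members against 89.2 CPM in sum-0 granule nuclei, and 115 against 134 CPM in the cKO-labelled library. Gabra6, a GABA-A receptor subunit of mature granule neurons, was seen in 0 of 401 control members, which allows a share of up to 0.748% by the limit of 3 counts and of 0.916% by the exact 95% interval, and in 12 of 546 members (2.20%) of the cKO-labelled library. Rbfox3, the neuronal splicing factor NeuN, was at 863 CPM in control members and 482 CPM in sum-0 nuclei. After thinning it was seen in 76.5% of control members and 72.6% of members in the cKO-labelled library. In nuclei with Cntn2 of 2 or more the thinned shares were 74.2% and 75.2%, so Rbfox3 did not set members apart from those. The mature receptor subunit was thus at or near 0 in both libraries.

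Granule nuclei with a sum of 0 and Cntn2 of 1 or less (642 control, 797 in the cKO-labelled library) were the nearest comparison, and members were set against them within each library. Of 10616 genes with 100 UMIs or more, 412 (3.88%) were at least 1.5-fold higher in members in both libraries and 967 (9.11%) were at least 1.5-fold lower in both. The comparison is a description, because the members were picked by their transcripts, and because the sum-0 nuclei were shallower, with medians of 3934 and 3708 UMIs. They also held more Slc1a3, a marker of astroglia, at 559 and 716 CPM against 150 and 294 CPM in members. The 9 progenitor markers, with Mki67 and Top2a at 0 by the rule, summed to 543 and 302 CPM in sum-0 nuclei. In members they summed to 204 and 202 CPM. Their part in the genes lower in members was not tested, and the limits given next do not cover them. For some genes below a further fold is given, from nuclei with at most 1 Slc1a3 UMI, at most 1 UMI of 5 macrophage genes and at most 2 Foxp2 UMIs on both sides, a limit set after the data had been seen. With these limits 15 of the 15 genes named as higher in members and 8 of the 10 named as lower were past 1.5-fold in both libraries.

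Bmp6, a secreted bone morphogenetic protein, led the genes higher in members. It was at 304 CPM in control members and 38.3 CPM in sum-0 nuclei, and at 248 and 47.2 CPM in the cKO-labelled library. These are folds of 7.95 and 5.25, and with the limits on other cells 7.23 and 4.46. The level of Bmp6 was higher in each further bin of the defining sum. In control it was 38.3 CPM at a sum of 0, 82.5 CPM at 1, 179 CPM at 2, 256 CPM at 3 to 4 and 396 CPM at 5 or more. In the cKO-labelled library the same bins stood at 47.2, 103, 167, 235 and 367 CPM. Nuclei with Cntn2 of 2 or more were lowest in both, at 31.3 and 33.9 CPM.

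Because Bmp6 was the gene most set apart in these nuclei outside the rule, the 250 bases before its annotated start are shown, from RefSeq (build GRCm38.p6, plus strand). The capitals mark the E-box letters CANNTG, the pattern read by basic helix-loop-helix factors such as Neurod1 and Atoh1. The pattern is the same on both strands.
Bmp6 chr13:38345466-38345715: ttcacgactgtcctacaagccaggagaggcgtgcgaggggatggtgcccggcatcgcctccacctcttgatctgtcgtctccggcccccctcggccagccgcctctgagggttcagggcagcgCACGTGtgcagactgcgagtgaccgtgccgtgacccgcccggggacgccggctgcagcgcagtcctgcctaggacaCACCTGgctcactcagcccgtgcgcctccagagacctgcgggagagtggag
The 2 matches begin at -127 and -51 from the start. At least 1 match stood in 66.2% of 32851 promoters of the same length, and at least 2 in 31.8%. The windows of Svep1, Frem2, Fgf5 and Slit3 held 0 matches. Etv1 had 0 at one annotated start and 3 at the other, beginning at -194, -126 and -45. A match is a description of letters and not evidence of binding, and no match says only that these letters are absent from that window.

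Other genes higher in members fell into a few kinds. Gas7, a cytoskeletal adaptor of growing neurites, was 6.62-fold higher in control members and 3.55-fold in the cKO-labelled library. Cftr, a chloride channel, was 5.23-fold and 2.94-fold higher. Syt4, a synaptotagmin of vesicle membranes, was at 491 CPM in control members against 124 CPM in sum-0 nuclei, and at 513 against 192 CPM in the cKO-labelled library. Slit3 was at 1287 against 411 CPM and at 1370 against 552 CPM. With the limits on other cells, its folds were 2.45 and 1.97. The potassium channel gene Kcnh1 was 3.33-fold and 2.54-fold higher, and Fstl5, a secreted follistatin-like protein, 3.68-fold and 2.44-fold. The remaining genes of the 15 highest were Me3, Slc35f3, Thsd7b, the noncoding Dnm3os and 4 genes known by number only (Gm15592, Gm26871, Gm26658 and Gm12128), with folds from 2.52 to 5.05.

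Of the 10 genes lowest in members, Dcc, a netrin receptor of growing axons, had the highest level. It was at 6164 CPM in sum-0 nuclei and 1235 CPM in members of the control library, and at 2341 and 483 CPM in the cKO-labelled library. Control sum-0 nuclei exceeded members 4.99-fold for Dcc, and 6.36-fold with the limits on other cells. Ntn1, the netrin that binds Dcc, was at 142 CPM in control sum-0 nuclei and 13.6 CPM in control members. Tox3 itself was at 125 and 26.9 CPM in control, and at 144 and 38.6 CPM in the cKO-labelled library. It was 4.66-fold and 3.72-fold higher in the sum-0 nuclei. Igfbpl1, Mdga1, 2610307P16Rik and Rreb1 also stood among the 10 lowest. Mrc1, Dab2 and F13a1, genes of macrophages, stood there as well, and with the limits on other cells Mrc1 and Dab2 lost that place, with folds for members over sum-0 nuclei of 0.759 and 0.986 in control.

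Lists of genes chosen by function described the same contrast, beside 3.88% and 9.11% of all genes. Of 25 synaptic adhesion genes with enough UMIs, 8 were higher in members in both libraries (Lingo2, Cntnap2, Lrrtm4, Cntn6, Lrrtm3, Dscam, Tenm1 and Il1rapl1) and 2 were lower. Lingo2, a leucine-rich repeat membrane protein, was at 1685 CPM in control members against 509 CPM in sum-0 nuclei, and at 2396 against 1079 CPM in the cKO-labelled library. Of 12 mature granule neuron genes, 3 were higher (Kcnd2, Rbfox3 and Grm4) and none was lower. Of 22 glutamate receptor genes, 5 were higher (Grin1, Grik3, Grm8, Grm5 and Grm4) and 3 lower. Of 15 early postmitotic and migration genes, none was higher and 5 were lower, Cxcr4, Cntn2, Pard3, Plxnb2 and Dcc, of which Cntn2 is in the rule. Of 15 progenitor genes, none was higher and 5 were lower, Gli2, Rnf220, Ccnd2, Hhip and Ntn1. Of 15 extracellular matrix genes, the 2 that were higher were Frem2 and Svep1 of the rule, and 7 were lower. Of 19 granule transcription factors, Neurod2 was higher and Insm1, Nhlh2, Nfib, Nfix and Mef2c were lower, of which Insm1 and Nhlh2 mark newborn neurons.

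**Figure D2:**
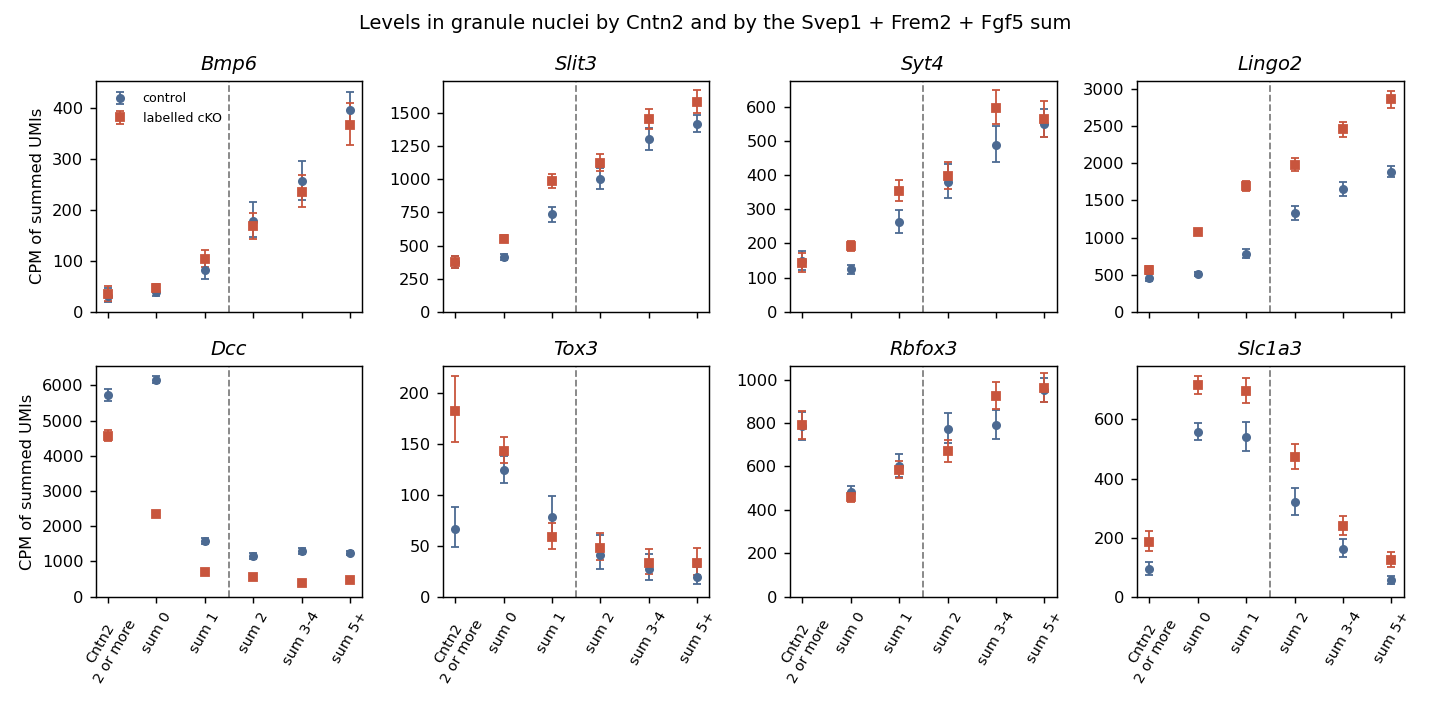
Level in CPM of summed UMIs (vertical axes, from 0) of 8 genes in granule nuclei with Cntn2 of 2 or more and in those with Cntn2 of 1 or less by their Svep1+Frem2+Fgf5 sum (horizontal axis), for the control library (blue circles) and the cKO-labelled library (red squares), with exact 95% Poisson intervals; members stand right of the dashed line. Bmp6, Slit3, Syt4 and Lingo2 are higher in members, Dcc and Tox3 lower, and Slc1a3 drops from a sum of 0 to a sum of 5 or more in both libraries.

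Bmp6 and Pax6 were compared between members with and without an Etv1 UMI. Bmp6 was at 321 CPM in the 132 control members with an Etv1 UMI and at 296 CPM in the 269 without. In the cKO-labelled library it was at 237 CPM in 218 members with an Etv1 UMI and at 256 CPM in 328 without. Pax6, the paired-box factor of the granule lineage, was lower in the Etv1-positive members, at 332 against 469 CPM in control and 314 against 469 CPM in the other library. Both genes count toward the same sum in the rule, and a nucleus without Etv1 had to reach 2 through Pax6, Neurod1 or Neurod2.

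Between the libraries, the summed members held 2569790 UMIs in control and 2849318 in the cKO-labelled library. Of 9996 genes with 50 UMIs or more, 440 (4.4%) were at least 1.5-fold higher in the cKO-labelled library and 360 (3.6%) at least 1.5-fold lower. The counting interval lay off 1 for 311 of the higher and 268 of the lower genes. The median log2 ratio of all these genes was 0.01. At 2-fold, 77 genes were higher and 70 lower.

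Of the 12 genes lowest in the cKO-labelled library, Dcc had the highest level in control members. It was at 1235 CPM in control members and 483 CPM in the cKO-labelled library, a ratio of 0.391 (0.367 to 0.416). Epha6, an ephrin receptor, was at 367 and 159 CPM, and Robo1, a receptor of Slit ligands, at 325 and 182 CPM. Clstn2, a synaptic calsyntenin, was at 136 and 67.4 CPM. Grik3, a kainate receptor subunit, was at 327 and 179 CPM, with a ratio of 0.548 (0.490 to 0.612). Caln1, a neuronal calcium-binding protein, was at 146 and 54.4 CPM, and the calcium-dependent phosphodiesterase gene Pde1c at 491 and 263 CPM. Dach2, a transcription cofactor, was at 470 and 260 CPM and Plekhg1 at 147 and 76.9 CPM. Under the thinned rule Robo1 had a ratio of 0.901, and in nuclei of 3000 to 12000 UMIs Pde1c had one of 0.711, neither past 1.5-fold. The 3 mitochondrial genes among the 12 lowest were mt-Atp6, mt-Cytb and mt-Co3, with ratios from 0.540 to 0.582. All 13 mitochondrial genes had a ratio under 1 and 10 passed the fold, and the mitochondrial share of member UMIs was 0.360% in control and 0.211% in the cKO-labelled library. The same share over all filtered nuclei was 0.275% and 0.181%.

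The 12 genes highest in the cKO-labelled library included Apoe, Slc1a3 and Sparcl1, which are known from glia. Apoe, a lipid carrier made by astroglia and macrophages, was at 65.0 CPM in control members and 235 CPM in the cKO-labelled library, a ratio of 3.62 (3.05 to 4.31). Slc1a3, the glutamate transporter of Bergmann glia, was at 150 and 294 CPM. Sparcl1, a secreted astrocyte protein, was at 62.3 and 142 CPM. The bicarbonate transporter gene Slc4a4 was at 125 and 289 CPM. Among the 12 highest were also the receptor tyrosine kinase gene Alk at 39.7 and 110 CPM and the phosphodiesterase gene Pde4b at 216 and 409 CPM. The receptor phosphatase gene Ptprt was at 426 and 759 CPM, and the AMPA receptor subunit gene Gria3 at 90.7 and 174 CPM. Nebl, an actin-binding nebulette, was at 349 and 644 CPM. Sox6, Wdr17 and D030068K23Rik had ratios of 2.04, 1.97 and 2.80. In members with a Y-linked UMI but without Xist (136 and 128 nuclei), Wdr17 and Slc1a3 had ratios of 1.14 and 1.06, and under the thinned rule Ptprt had one of 1.34.

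The whole list of 7 astroglial markers moved with the library. Its summed level in members was 450 CPM in control and 765 CPM in the cKO-labelled library, a ratio of 1.70 (1.58 to 1.83), with 6 of the 7 higher and Hopx, at 8 and 3 UMIs, the exception. Members with 3 or more Slc1a3 UMIs were 4.49% of control members and 9.34% of the others. The list ranged from 0 to 57 UMIs per member in both libraries, and 85 control members and 101 of the others held none of it. Among these nuclei alone, Apoe still had a ratio of 3.62 (1.77 to 8.16) on 10 and 37 UMIs. Alk was at 53.1 and 118 CPM there, Pde4b at 153 and 337 CPM, Ptprt at 378 and 801 CPM and Gria3 at 73.5 and 192 CPM. Sparcl1 and Wdr17 had ratios of 1.51 (0.668 to 3.57) and 1.36 (0.772 to 2.44), whose intervals included 1. Dcc was at 1253 and 467 CPM in the same nuclei. Of the 23 ranked genes with a value in members without any astroglial UMI, 21 were past 1.5-fold in the same direction, 20 of them with an interval off 1. These nuclei are part of the members by which the genes were ranked, so the count is no independent check. Of all genes called in members, 26 of 440 higher and 39 of 360 lower were called in these nuclei, where 3659 genes had enough UMIs. Wdr17 and Dach2 (0.679) were not past it, and Slc1a3, itself a marker of the list, had no value.

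**Figure D3:**
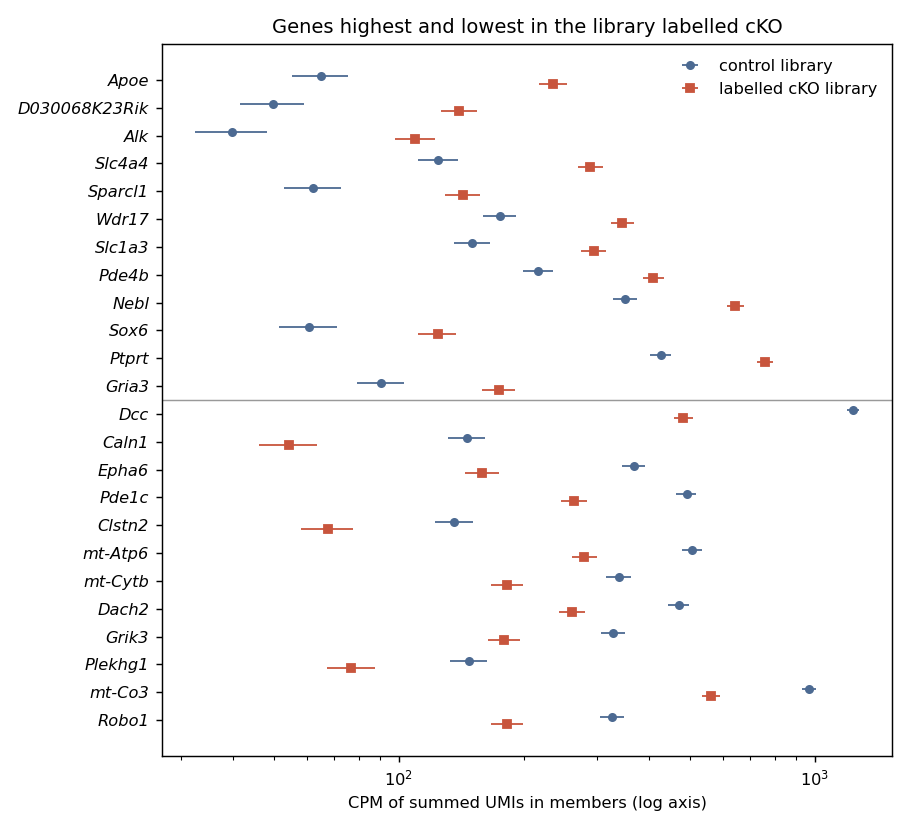
Level in CPM of summed member UMIs (horizontal log axis) of the 12 genes highest and the 12 lowest in the cKO-labelled library (above and below the grey line), in control (blue circles) and in the cKO-labelled library (red squares), with exact 95% Poisson intervals. The intervals of the 2 libraries lie apart for these genes, which were ranked by their intervals. Dcc, the only one above 1000 CPM in control, is at 1235 and 483 CPM.

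The ratios of these genes were set beside those of granule nuclei with Cntn2 of 2 or more (141 control, 162 in the cKO-labelled library) and of GABAergic nuclei (420 and 862). Dcc was at 5733 and 4572 CPM in Cntn2-high nuclei, a ratio of 0.797 (0.762 to 0.835). The ratio in members divided by that in Cntn2-high nuclei was 0.490 (0.453 to 0.530), so Dcc differed more between the libraries in members than in Cntn2-high nuclei. In sum-0 granule nuclei its ratio was 0.380 (0.370 to 0.390), close to that in members, and over all filtered nuclei it was 0.464. In GABAergic nuclei its ratio was 0.749. In microglial nuclei (Csf1r+C1qa+C1qb of 2 or more, outside the granule criteria, 43 and 133 nuclei) Dcc was at 1927 and 799 CPM. That ratio was 0.415 (0.357 to 0.481), so the lower Dcc was not particular to members. The part that RNA from other cells had in it was not tested. Grik3 went the other way, at 181 and 39.6 CPM in Cntn2-high nuclei, and its quotient of ratios was 2.51 (1.63 to 3.97). Dach2 had a quotient of 1.90 (1.46 to 2.51), so that its gap was wider in the Cntn2-high nuclei too. Sox6 had a ratio of 0.885 in Cntn2-high nuclei and a quotient of 2.30 (1.31 to 4.07), and Sparcl1 had a quotient of 0.564 (0.328 to 0.937). Alk, Slc4a4, Slc1a3 and Apoe were higher in the cKO-labelled library in members and in Cntn2-high nuclei, with intervals of the quotient that included 1. In sum-0 granule nuclei their ratios were 1.19, 2.01, 1.28 and 2.41. Robo1 and Plekhg1 had ratios of 0.941 and 0.817 in sum-0 nuclei, nearer 1 than the 0.560 and 0.523 in members. Ptprt and Pde4b had ratios of 1.80 and 1.73 in sum-0 nuclei, close to the 1.78 and 1.89 in members. In GABAergic nuclei, Apoe had a ratio of 1.45 and Slc1a3 a ratio of 0.730. The mitochondrial gene mt-Co3 had a ratio of 0.591 in GABAergic nuclei, close to the 0.582 in members, and 0.827 in Cntn2-high nuclei.

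**Figure D4:**
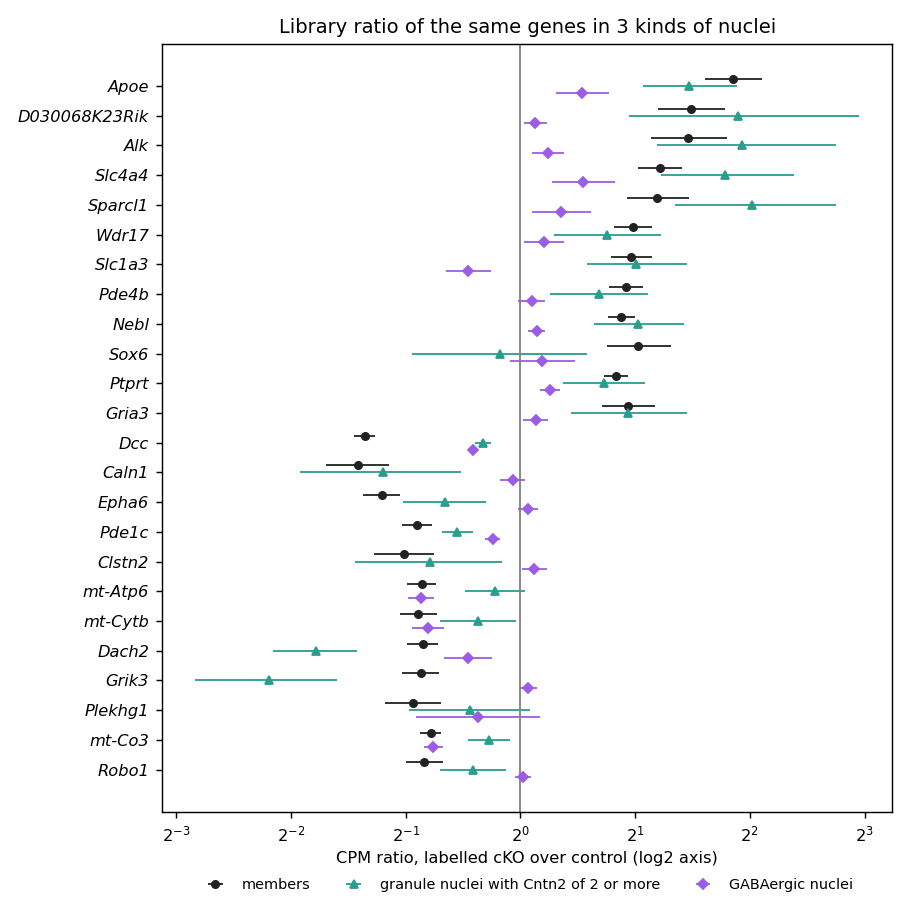
Ratio of CPM, library labelled cKO over control (horizontal log2 axis), of the 24 ranked genes in members (black circles), granule nuclei with Cntn2 of 2 or more (green triangles) and GABAergic nuclei (purple diamonds), with exact 95% counting intervals. Dcc is lower in members (0.391) than in Cntn2-high nuclei (0.797), Grik3 and Dach2 are lower in Cntn2-high nuclei, and the 12 highest genes lie nearer 1 in GABAergic nuclei than in members.

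The same lists were then counted between the libraries, beside 4.4% of all genes higher and 3.6% lower. Of 21 glutamate receptor genes with enough UMIs, 5 were higher in the cKO-labelled library and 1 was lower, with a median log2 ratio of 0.26. The higher genes were the metabotropic Grm4 at 94.9 and 166 CPM, Grm3 at 148 and 228 CPM, the NMDA receptor subunit Grin2a at 137 and 227 CPM, Grik4 at 60.7 and 94.1 CPM, and Gria3. In the members with a Y-linked UMI but without Xist, Grm3 had a ratio of 0.823 (0.630 to 1.07), and in members with no astroglial UMI Grin2a had one of 1.38 and Grik4 one of 1.05 (0.605 to 1.82). The abundant subunits Gria2 and Grik2 had ratios of 0.982 and 0.985. Of 9 GABA-A receptor genes, none passed the fold. Gabrb1 was at 277 and 380 CPM.

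Of 11 mature granule neuron genes, Synpr, a synaptic vesicle protein, and Grm4 were higher and none was lower. Synpr was at 90.7 and 161 CPM, with a ratio of 1.77 (1.51 to 2.08), and of 1.25 in members with no astroglial UMI. The most abundant members of the list were level, Kcnd2 at 5389 and 5508 CPM and Reln, the secreted reelin, at 2173 and 1980 CPM, while Cadps2 was at 2623 and 2186 CPM. Of 10 progenitor genes with enough UMIs, 4 were lower and none was higher. Barhl1, a homeobox factor of the rhombic lip lineage, was at 30.0 and 16.5 CPM, Ccnd2, a G1 cyclin, at 34.2 and 17.9 CPM, Sema7a at 27.6 and 15.8 CPM and Sfrp1 at 13.6 and 7.02 CPM. These are low levels, with 20 to 88 UMIs a library. The lower values were not particular to members. Barhl1 and Sema7a had ratios of 0.551 and 0.572 in members, 0.315 and 0.208 in sum-0 granule nuclei, and 0.274 and 0.382 over all filtered nuclei. In GABAergic nuclei their ratios were 0.230 and 0.803, and the interval for Sema7a included 1. Atoh1 had 2 UMIs in control members and 0 in the others. Btbd11 and Rnf220 had ratios of 0.891 and 0.835, and Ntn1 and Col18a1, at 12 UMIs each in the cKO-labelled library against 35 and 30, had under 50 UMIs in all.

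Of 14 early postmitotic and migration genes, Dcc was lower and none was higher. Of 17 granule transcription factors, Klf9 was higher, on 28 and 57 UMIs, and Barhl1 lower. Neurod1, Neurod2 and Pax6, which are in the rule, had ratios of 1.04, 1.12 and 0.954, and Nfia, Nfib and Meis1 had ratios of 0.943, 1.11 and 0.880. Of 19 guidance genes, Sema3d and Efnb2 were higher and Robo1, Epha5 and Nrp2 lower. Slit3 was level, at 1287 and 1370 CPM, and Robo2 was at 1984 and 1533 CPM.

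Of 12 extracellular matrix genes, 3 were higher and none was lower. Fras1, the partner of Frem2 in the basement membrane complex, was at 24.9 and 51.9 CPM, on 64 and 148 UMIs. Lama2, a laminin chain, was at 10.5 and 21.4 CPM, and Bcan, the proteoglycan brevican, at 7.78 and 16.5 CPM. In members with no astroglial UMI Bcan had a ratio of 0.978 and Lama2 one of 1.30, and under the thinned rule Lama2 had one of 0.717, each on 5 UMIs or fewer a library. The astroglial and oligodendrocyte marker lists were higher in the same members, with ratios of 1.70 and 2.09, and their part in these genes was not tested. Within members, where the rule used them, Svep1 was at 359 and 328 CPM and Frem2 at 267 and 283 CPM. Of 8 genes of FGF ligands and receptors, Fgf10, a secreted ligand, was higher, at 24.9 CPM in control and 79.7 CPM in the cKO-labelled library, a ratio of 3.20 (2.41 to 4.29). Fgf14, an intracellular partner of sodium channels, was at 1495 and 2070 CPM, and the receptor gene Fgfr2 at 1004 and 1033 CPM.

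Of 25 synaptic adhesion genes, only Tenm1 passed the fold, at 466 and 740 CPM. Lingo2 was at 1685 CPM in control members and 2396 CPM in the cKO-labelled library, a ratio of 1.42 (1.37 to 1.48), and it was higher in the latter in every bin of the defining sum. In members with a sum of 2 it was at 1325 and 1979 CPM, and in those with a sum of 5 or more at 1886 and 2863 CPM. This difference was not particular to members. The Lingo2 ratio was 2.12 (1.99 to 2.26) in sum-0 granule nuclei, 1.22 (1.06 to 1.42) in Cntn2-high nuclei, 1.13 in GABAergic nuclei and 1.41 over all filtered nuclei. Cntnap2 and Tenm2, abundant genes of the list, had ratios of 1.01 and 1.09. Of 24 sodium, calcium and potassium channel genes, Kcna1 was lower, on 47 and 31 UMIs. In the TOX family, Tox was lower, at 109 and 57.6 CPM, Tox4 was at 59.5 and 66.3 CPM, and Tox3 was at 26.9 and 38.6 CPM, a ratio of 1.44 (1.05 to 1.97). In members with no astroglial UMI (85 and 101) the Tox3 ratio was 0.815, and under the thinned rule (91 and 127 members of 2000 UMIs) it was 7.88. Both values rest on few Tox3 UMIs and do not measure the size of a difference. In Cntn2-high nuclei the Tox3 ratio was 2.73 (1.95 to 3.88), and the ratio in members divided by it was 0.527 (0.328 to 0.841). Of 12 immediate early and stress genes, 2 had enough UMIs and neither passed the fold, with Hsp90aa1 at 305 and 294 CPM.

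**Figure D5:**
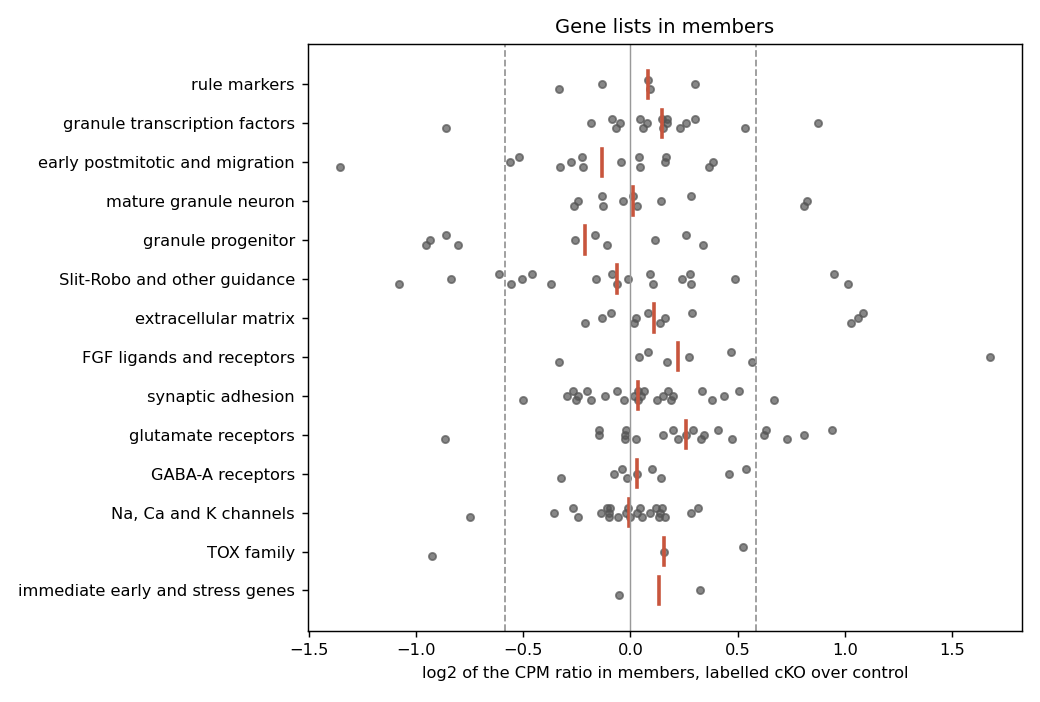
Log2 ratio of CPM in members, library labelled cKO over control (horizontal axis), for every gene with 50 UMIs or more in 14 lists (grey points, 1 per gene), with the list's median (red bar) and the 1.5-fold limits (dashed). Glutamate receptors have a median of 0.26 and 5 genes past the upper limit, and the progenitor genes a median of -0.21 and 4 genes past the lower limit.

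Genes that marked the members against sum-0 nuclei were not all level between the libraries. Gas7 was at 203 CPM in control members and 125 CPM in the cKO-labelled library, a ratio of 0.615 (0.537 to 0.706), and was the one of the 15 past 1.5-fold. Bmp6 had a ratio of 0.814 (0.734 to 0.903), and Slc35f3 and Cftr ratios of 0.726 and 0.786. Syt4, Slit3, Kcnh1 and Gm26871 had ratios from 1.04 to 1.07. Within the highest bin, a sum of 5 or more, Bmp6 was at 396 and 367 CPM, and its intervals overlapped.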

How the data were processed

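Single-nucleus RNA-seq of mouse cerebellum at postnatal day 1 was analysed in 2 libraries, control and labelled cKO, each of 12 pooled cerebella. Per the labels and the study's methods, the authors counted reads with Cell Ranger 7.0.1 on GRCm38, and the deposited values are raw UMI counts per gene and nucleus, not normalized. Whether introns were counted is not given in the sources used here. Free RNA was not corrected and doublets were not removed, except where an alternative says so. Gene symbols are those of the deposited tables, and gene positions are from the GENCODE annotation of GRCm38.

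Members were picked by the rule given with the results. UMIs were summed per gene over the members of a library and scaled to CPM. A gene was counted if it had 50 UMIs or more over both libraries (100 against sum-0 nuclei), and called past 1.5-fold. With 1 library per group no p-value was computed. Intervals are Clopper-Pearson for shares, Poisson for levels and exact conditional for ratios, at 95%. A count of 0 was read as allowing up to 3 counts. Before shares of nuclei with a UMI were compared, nuclei were thinned to 2000 UMIs, which left out at most 2 members. The ratio and its interval were checked on simulated counts.

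Named genes were the rule's genes and markers, Tox3, Atoh1, Lingo2 and 6 progenitor genes, the 12 highest and 12 lowest between the libraries by the interval bound nearer 1 (100 UMIs or more, 100 CPM or more in 1 library), the 15 highest and 10 lowest against sum-0 nuclei in both libraries, and list genes past the fold with the 3 most abundant of each list. A few of these genes are not reported here. Other genes, such as Gabra6, were named after their values were seen. The members, lists and tests were chosen with earlier results of these data known. Python 3.11.15, numpy, scipy and scanpy 1.11.5 were used.

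Alternatives to the rule, the filters, the scaling and the fold were run, and their effect is given at the end.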

Additional observations from a re-analysis of the deposited data

Results flagged for a closer look

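Clstn2 and Slc1a3 differed between the libraries in opposite directions in 2 kinds of nuclei. Clstn2 had a ratio of 0.496 (0.414 to 0.593) in Svep1/Frem2 granule nuclei and of 1.09 (1.01 to 1.17) in GABAergic nuclei. Slc1a3 had a ratio of 1.96 (1.73 to 2.21) in Svep1/Frem2 granule nuclei and of 0.730 (0.636 to 0.838) in GABAergic nuclei. Each kind of nuclei has 1 library per group, so the difference between them was not tested, and the intervals cover counting error only.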

How the results depend on the processing

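With 1 library per group the choices below bear on counting only, and the difference between the libraries cannot be told apart from a difference between pools. No paired analysis was possible because each group has 1 library. With a Svep1+Frem2+Fgf5 sum of 3 or more, the share of filtered nuclei had a ratio of 0.689 and the share of granule nuclei one of 0.844. Among nuclei without astroglial UMIs, a limit added after the data had been seen, these ratios were 0.729 and 1.18. The other settings left both shares within the intervals given for the rule. Genes past 1.5-fold numbered 172 higher and 112 lower under thinning to 2000 UMIs, where 1703 genes had enough UMIs, and 193 and 211 without astroglial UMIs, where 3659 had. Nuclei with a Y-linked UMI but without Xist gave 291 higher and 258 lower genes of 5181. Of the genes called under the rule, 24 higher and 16 lower were called under thinning too, 26 and 39 without astroglial UMIs, and 53 and 57 in the Y-linked nuclei. A minimum of 20 UMIs gave 978 and 847, a minimum of 1 UMI 4464 and 4308, and a 2-fold limit 77 and 70. Against sum-0 nuclei, the limits on other cells gave 286 genes higher and 451 lower, of which 237 and 368 were among those called without the limits, thinning gave 245 higher and 546 lower, and 2-fold gave 95 and 395, all added after the data had been seen.

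The 24 ranked genes kept their direction under every setting that gave a value (12, and 11 for Slc1a3), and 17 of them stayed past 1.5-fold throughout. The exceptions were Wdr17, Slc1a3, Sox6, Ptprt, Pde1c, Dach2 and Robo1. The settings largely reuse the nuclei by which these genes were ranked, so the kept directions are no independent check. Of 1350 ratios of named genes under other settings, 1099 stayed within the counting interval and 244 left it. A further 7 left it as well, to the other side of 1 from a ratio past 1.5-fold. In 86 the value crossed 1. Of these, 7 were past 1.5-fold under the rule and the others lay within 1.5-fold, and the cause was not tested. Kcna1 turned to 1.07 under thinning and 1.10 in nuclei with a Y-linked UMI but without Xist, Lama2 to 0.717 under thinning and Grm3 to 0.823 in the Y-linked nuclei. Without astroglial UMIs, Bcan turned to 0.978, Nrp2 to 1.96 and Rreb1 to 0.245. Bcan had 5 UMIs in each library there, with an interval of 0.225 to 4.25. These settings left few members, 91 and 127 under thinning, 136 and 128 with a Y-linked UMI and 85 and 101 without astroglial UMIs.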

Other observations

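Summed markers of other cell types in Svep1/Frem2 granule nuclei had ratios between the libraries from 0.980 to 2.09. The ratio was 2.09 (1.41 to 3.14) for oligodendrocyte lineage markers, 1.20 (1.01 to 1.44) for those of GABAergic interneurons, 1.12 (1.05 to 1.20) for those of Purkinje cells and 1.09 (1.03 to 1.15) for those of unipolar brush cells. The intervals for microglia, progenitors, glutamatergic cerebellar nuclei neurons and endothelial, mural and meningeal cells included 1. The 6 microglial markers summed to 188 CPM in control members and 184 CPM in the cKO-labelled library, and 149 and 256 members held none of them. The 7 Purkinje cell markers summed to 695 and 781 CPM, the 4 unipolar brush cell markers to 865 and 941 CPM, and the 6 markers of GABAergic interneurons to 86.0 and 104 CPM. Gad1 and Gad2 are among these 6, and the rule held their sum at 1 or less per nucleus. The 5 markers of glutamatergic cerebellar nuclei neurons summed to 87.9 and 96.5 CPM. The 5 oligodendrocyte lineage markers were low, at 14.8 and 30.9 CPM, with none in 370 of 401 and 503 of 546 members, and the 6 endothelial, mural and meningeal markers lower still, at 5.84 and 8.77 CPM. The 9 progenitor markers summed to 204 and 202 CPM, with Mki67 and Top2a at 0 by the rule. Their part in the differences between the libraries was not tested.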
